A study of Mus musculus with 12 samples.

Results

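A set of 40 listed mouse genes that act in mitosis and cytokinesis was followed in a B cell line driven towards the macrophage state. Members were found by gene symbol in the annotation of the array platform, which listed probe sets for 39 of the 40. The remaining gene, Ccnb1, was not analysed here. The 39 genes had 86 such probe sets, of 45101 probe sets on the array, and they are 39 of 18193 genes with a probe set of 1 symbol. All 39 passed the filter on dim signals, as did 11696 genes in all. Each gene is given by its brightest probe set, and 13 members had a single probe set.

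The study measured 12 one-colour arrays, 2 for each of 6 groups. C10, a mouse line that carries the myeloid transcription factor C/EBPa in an inducible form, was exposed to beta-estradiol, the inducer, for 3, 12, 24 or 48 h. HAFTL, a line made from mouse fetal liver by transformation with the Ha-ras oncogene, also received beta-estradiol, and vehicle C10 received ethanol. The labels give no time of exposure for HAFTL or for vehicle C10, so neither is matched in time to a C10 group with estradiol. HAFTL differs from vehicle C10 in both line and agent, and these cannot be told apart. The labels do not say whether the 2 arrays of a group are separate cultures. The p-values therefore cover only the spread between arrays, which may be technical, and the number of arrays limits the precision.

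Cells enter mitosis when A- and B-type cyclins activate the kinase Cdk1. Kinetochores then tie chromosomes to spindle microtubules, and the spindle checkpoint holds back the anaphase promoting complex (APC/C) and its activator Cdc20 until every chromosome is attached. After the chromosomes part, the chromosomal passenger complex and the central spindle direct the cleavage of the cell. Transcripts of these genes usually peak late in the cell cycle and are low in cells that have stopped dividing. In bulk RNA, fewer dividing cells and less transcript per cell cannot be told apart.

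Of 12 B lineage markers, 12 lay above the filter level in both HAFTL arrays and 12 in both vehicle C10 arrays. At each time of estradiol, 9 of the 12 did. The summed signal of these B lineage markers was 143771 to 145046 in HAFTL and 125339 to 128170 in vehicle C10. With estradiol it was lower, at 38539 to 39545 after 3 h, 28345 to 28912 after 12 h, 25331 to 27084 after 24 h and 19326 to 21175 after 48 h. The summed signal of 12 macrophage markers was 3945 to 4206 in vehicle C10. It was 10795 to 12346 after 3 h of estradiol, 25904 to 26497 after 12 h, 113329 to 114435 after 24 h and 185164 to 188249 after 48 h. Most of the sum at 3 h was Cybb, with 10160 and 8858, against 2309 and 2557 in vehicle C10. By limma (adjusted p below 0.05), 4 of the 12 were higher and 2 lower at 3 h, as were 2450 and 3196 of all 11696 genes. At 48 h, 10 of the 12 were higher and 1 lower, as were 2831 and 4469 of all genes. Mmp12 was at the floor in HAFTL and in vehicle C10. Summed signals over all arrays were 162 to 263 for 5 T and NK cell markers, 52 to 175 for 3 erythroid markers and 221 to 608 for 5 stromal markers. The ratio of 5′ to 3′ signal of Actb, a sign of RNA integrity, was 0.746 to 0.848 in C10 with estradiol, against 0.582 and 0.638 in vehicle C10. The same ratio of Gapdh did not differ in this way, at 1.135 to 1.315 in C10 with estradiol, against 1.194 and 1.15 in vehicle C10. The mean log2 signal of the 18S rRNA controls was 12.28 in 3 h replicate 2 and 7.82 to 9.74 in all other arrays. The part of these measures in the results was not tested.

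The members moved as a group. Relative to vehicle C10, 37 of 39 rose at 3 h, 29 of 39 were still higher at 12 h, 37 of 39 were lower at 24 h, and all 39 were lower at 48 h. A gene is called here when limma's moderated test gives an adjusted p below 0.05 after Benjamini-Hochberg adjustment over the 11696 genes. Of all genes tested, 20.9% were called higher at 3 h, 22.3% higher at 12 h, 33.3% lower at 24 h and 38.2% lower at 48 h. The members' median log2 changes at the 4 times, early to late, were 1.64, 0.91, -1.38 and -4.51. The corresponding medians of all genes tested were -0.06, -0.08, -0.13 and -0.19. The 4 comparisons share the vehicle C10 arrays. Over the 4 times together, the moderated F test called 39 of 39 members, and 76% of all genes.

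All 39 members had their highest C10 mean at 3 h and their lowest at 48 h. At 3 h, both arrays lay above both vehicle C10 arrays in 39 members, a separation seen in 33.7% of all genes tested. At 12 h this held for 38 members (34% of all genes), while Ndc80 had both 12 h arrays below both vehicle arrays (42.7% of all genes). At 24 h and at 48 h, both arrays lay below both vehicle arrays in 39 members (45.2% and 47.5% of all genes). As a percentage of vehicle C10, the members stood at 115% to 510% at 3 h, 65.7% to 318% at 12 h, 8.73% to 70.4% at 24 h and 1.01% to 31.9% at 48 h.

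At 48 h the signals were close to the lower limit of what the arrays show. Both 48 h arrays lay under the filter level of 74.6 in 20 members, 1 of the 2 did so in 5, and neither did in 14. For the 20, changes at 48 h are lower bounds, written as at least so many fold, and taken as the vehicle mean against the filter level. With those genes put at their bounds, the members' median log2 change at 48 h was -3.56. Log2 changes under those bounds are fitted values that rest on signals under the filter level. They rest on the floor of 16 only where an array was at it, as both 48 h arrays were in 4 members.

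**Figure D1:**
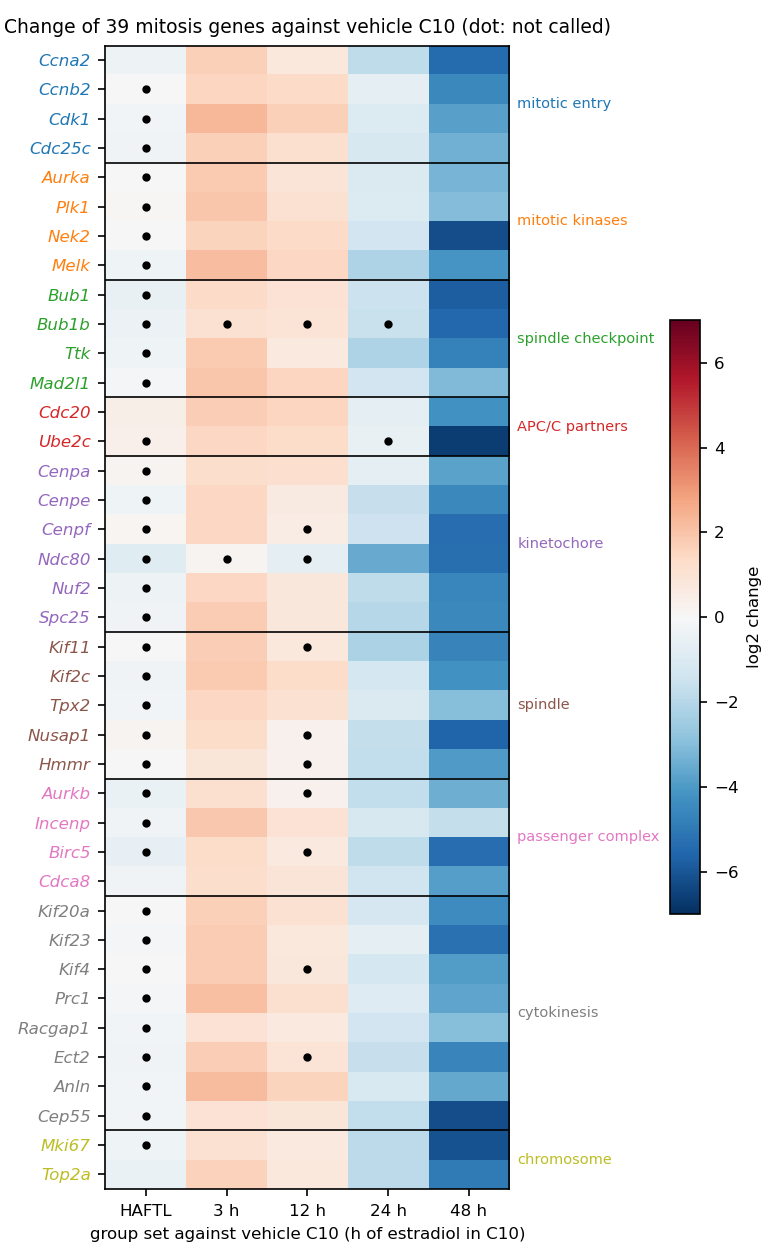
Log2 change of each of 39 members (rows, by role) against vehicle C10 in HAFTL and in C10 after 3, 12, 24 and 48 h of estradiol (columns). Red is higher and blue lower than vehicle C10, and a dot marks a change that was not called by limma. Columns turn from red at 3 h to deep blue at 48 h, with 2 dots at 3 h and none at 48 h, and the HAFTL column is nearly white. Values at 48 h are fitted, and for 20 members they rest on signals under the filter level.

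Because the members moved together, the promoters of 33 of them listed by RefSeq (GRCm38.p6, from 250 bases before to 50 after the start) were searched for 2 motifs, on both strands. The cell cycle homology region (CHR), TTTGAA, is a known binding element of the MuvB complexes. CCAAT is the box bound by NF-Y. The motifs can share an end base, since an A ends TTTGAA and starts ATTGG, the reverse of CCAAT. The CHR was found in 25 of 33 members (75.8%), and in 14.5% of the 9500 tested genes with a listed promoter. CCAAT was found in 24 of 33 (72.7%), against 42.8% of those genes. Both motifs were present in 21 members (63.6%), against 5.78%, and at least 2 CCAAT boxes in 17 members (51.5%), against 16.4%. A match is a description of letters, not a measured site. Aurkb, Ccna2, Cdc25c, Incenp, Kif20a and Tpx2 were not matched to a promoter.

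Windows of 5 members, from 120 bases before the start to 20 after it, are printed 5′ to 3′ with CCAAT (or ATTGG) and TTTGAA (or TTCAAA) in capitals. They are examples chosen with the values known. Cdk1 had the largest rise at 3 h, and Ndc80 was not called at 3 h. Ccnb2, Cdc20 and Ube2c kept most of their 3 h signal at 12 h, although Cenpa and Bub1b, not printed, kept more (95.8% and 93.6%). Melk, Mad2l1, Nuf2, Nusap1 and Birc5 had neither motif and were all called higher at 3 h. A link between the motifs and the changes was not tested. The windows lie at chr9:70421535-70421674 (minus strand, Ccnb2), chr10:69352893-69353032 (minus, Cdk1), chr4:118437324-118437463 (minus, Cdc20), chr2:164769809-164769948 (plus, Ube2c) and chr17:71526838-71526977 (minus, Ndc80).
Ccnb2: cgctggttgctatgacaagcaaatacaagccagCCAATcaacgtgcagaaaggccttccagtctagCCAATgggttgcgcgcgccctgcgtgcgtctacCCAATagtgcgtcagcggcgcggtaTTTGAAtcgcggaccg
Cdk1: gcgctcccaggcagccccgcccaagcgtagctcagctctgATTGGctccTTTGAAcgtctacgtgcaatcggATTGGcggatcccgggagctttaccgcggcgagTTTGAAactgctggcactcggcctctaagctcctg
Cdc20: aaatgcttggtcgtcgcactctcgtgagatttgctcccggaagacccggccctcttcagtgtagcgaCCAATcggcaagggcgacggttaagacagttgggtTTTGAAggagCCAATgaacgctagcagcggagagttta
Ube2c: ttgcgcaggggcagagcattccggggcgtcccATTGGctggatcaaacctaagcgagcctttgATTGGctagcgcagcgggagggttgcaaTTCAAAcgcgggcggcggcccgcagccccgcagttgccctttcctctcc
Ndc80: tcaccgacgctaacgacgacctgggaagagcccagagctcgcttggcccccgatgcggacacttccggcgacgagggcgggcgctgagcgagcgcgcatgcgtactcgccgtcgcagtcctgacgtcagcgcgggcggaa
In Ccnb2, 3 CCAAT boxes at -87, -54 and -21 were followed by a CHR at 5. Cdk1 had a CHR at -15 and another at -71, on either side of a reverse CCAAT at -48. In Cdc20 the CHR at -18 lay between CCAAT boxes at -53 and -8, and in Ube2c it lay on the antisense strand at -29. The printed window of Ndc80 held neither motif, and its only match in the longer window was an antisense CHR at 30.

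**Figure D2:**
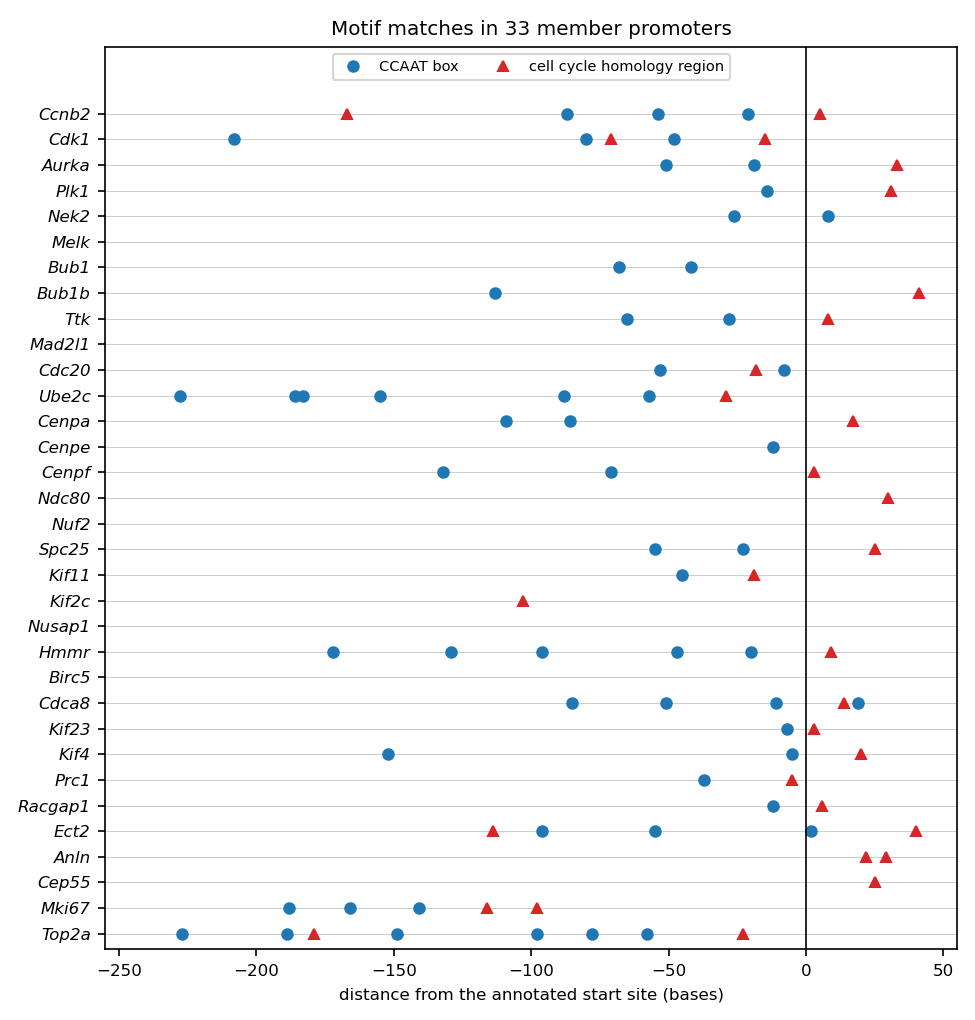
Positions of CCAAT boxes (circles) and of the CHR (triangles) in the RefSeq promoters of 33 members, as distance in bases from the annotated start, on either strand. CHR matches lie mostly within 50 bases of the start, and CCAAT boxes mostly upstream of it. Melk, Mad2l1, Nuf2, Nusap1 and Birc5 have no match.

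Among the genes of mitotic entry, Cdk1, the kinase that drives entry, had the largest rise of any member at 3 h. Its signal was 1972 and 2001 in vehicle C10, 10600 and 9683 after 3 h, 6257 and 6371 after 12 h, 1086 and 987 after 24 h, and 171 and 120 after 48 h. No array of any of these times overlapped the vehicle arrays. The rise at 3 h was 2.35 ± 0.15 on the log2 scale (SE, n = 2 arrays each, limma adjusted p = 1.7e-05), or 5.10-fold. At 48 h Cdk1 stood at 7.23% of vehicle. Ccna2, cyclin A2, had 2345 and 2478 in vehicle C10, 8177 and 7272 after 3 h, 4036 and 4018 after 12 h, 679 and 706 after 24 h, and 57.9 and 58.6 after 48 h. It fell by 0.94 ± 0.08 between 3 h and 12 h (limma adjusted p = 1.7e-04). Its 48 h signal in this probe set was at least 32.3-fold lower than in vehicle C10. The other probe set of Ccna2 fell less in both steps. It had 1378 and 1447 in vehicle C10, 5367 and 5223 after 3 h, and 3708 and 3881 after 12 h. After 48 h it had 138 and 98.1, above the filter level. Ccnb2, cyclin B2, had 1834 and 1839 in vehicle C10, 5331 and 5137 after 3 h, 4806 and 4461 after 12 h, 1118 and 1272 after 24 h, and 77.7 and 83.5 after 48 h. Its 12 h and 3 h values were not called different (-0.18 ± 0.09, limma adjusted p = 0.199). Cdc25c, the phosphatase that activates Cdk1, rose by 1.66 ± 0.13 at 3 h and was at the floor in both 48 h arrays.

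The mitotic kinases rose at 3 h in 4 of 4 cases and were lower at 24 h and 48 h in 4 of 4. Plk1, which acts in centrosome maturation, checkpoint exit and cytokinesis, had 3825 and 3940 after 3 h, against 954 and 1062 in vehicle C10. By 24 h it had 493 and 543, and by 48 h 92.7 and 164, so that it stayed above the filter level throughout. Aurka, the spindle pole kinase, rose by 1.84 ± 0.09 at 3 h and fell by 3.24 ± 0.09 at 48 h relative to vehicle C10 (limma adjusted p = 4.1e-06 and 8.9e-08). Nek2, which separates centrosomes, had 3314 and 3542 after 3 h and 2788 and 3023 after 12 h, and both its 48 h arrays were at the floor. Melk, a kinase whose level tracks proliferation, rose by 2.18 ± 0.22 at 3 h and had the deepest first fall of any member. Its 24 h signal was 8.20% of that at 12 h (77.3 and 80.0 after 24 h, against 955 and 965 at 12 h).

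The spindle checkpoint genes were called higher at 3 h in 3 of 4 cases. Ttk, the kinase Mps1 that starts checkpoint signalling, had 1859 and 1764 after 3 h, against 453 and 565 in vehicle C10. It lost the largest share of this by 12 h, when it had 703 and 941, or 44.9% of its 3 h mean. Mad2l1, the checkpoint effector Mad2, kept 72.8% at 12 h and still had 269 and 195 after 48 h. Bub1, a kinetochore kinase, rose by 1.33 ± 0.18 at 3 h and was at least 22.2-fold lower at 48 h. Bub1b, which encodes the checkpoint protein BubR1, had 4316 and 3689 after 3 h, against 1944 and 1834 in vehicle C10, and these pairs do not overlap. Its change of 1.08 ± 0.64 was not called (limma adjusted p = 0.204). The 48 h arrays of Bub1b read 99.3 and 18.3, and the pooled error of the fit includes this gap. Without 48 h replicate 1 or without 48 h replicate 2, the rise was called (limma adjusted p = 2.8e-04 in either case). A further probe set of Bub1b had 3715 and 3608 after 3 h, against 1683 and 1674 in vehicle C10, and was called higher (1.13 ± 0.13).

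The APC/C partners rose at 3 h and 12 h in 2 of 2 cases and kept the most signal at 24 h. Cdc20 had 3882 and 3804 in vehicle C10, 12660 and 12550 after 3 h, 11490 and 10300 after 12 h, 2533 and 2519 after 24 h, and 207 and 199 after 48 h. Ube2c, the ubiquitin-conjugating enzyme that works with the APC/C, had 2243 and 2243 in vehicle C10, 6105 and 6124 after 3 h, 5464 and 5546 after 12 h, 1454 and 1713 after 24 h, and 32.3 and 16 after 48 h. At 24 h these genes kept 65.7% and 70.4% of their vehicle level, the highest shares of any member. Ube2c at 24 h was not called lower (-0.51 ± 0.28, limma adjusted p = 0.155), although it was without either 48 h array (adjusted p = 0.0032). Its rises at 3 h and 12 h were not called with a floor of 1 in place of 16 (adjusted p = 0.268 and 0.314). By 48 h Ube2c was at least 30.0-fold lower than in vehicle C10, the fitted value being the lowest of any member at 1.01%.

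**Figure D3:**
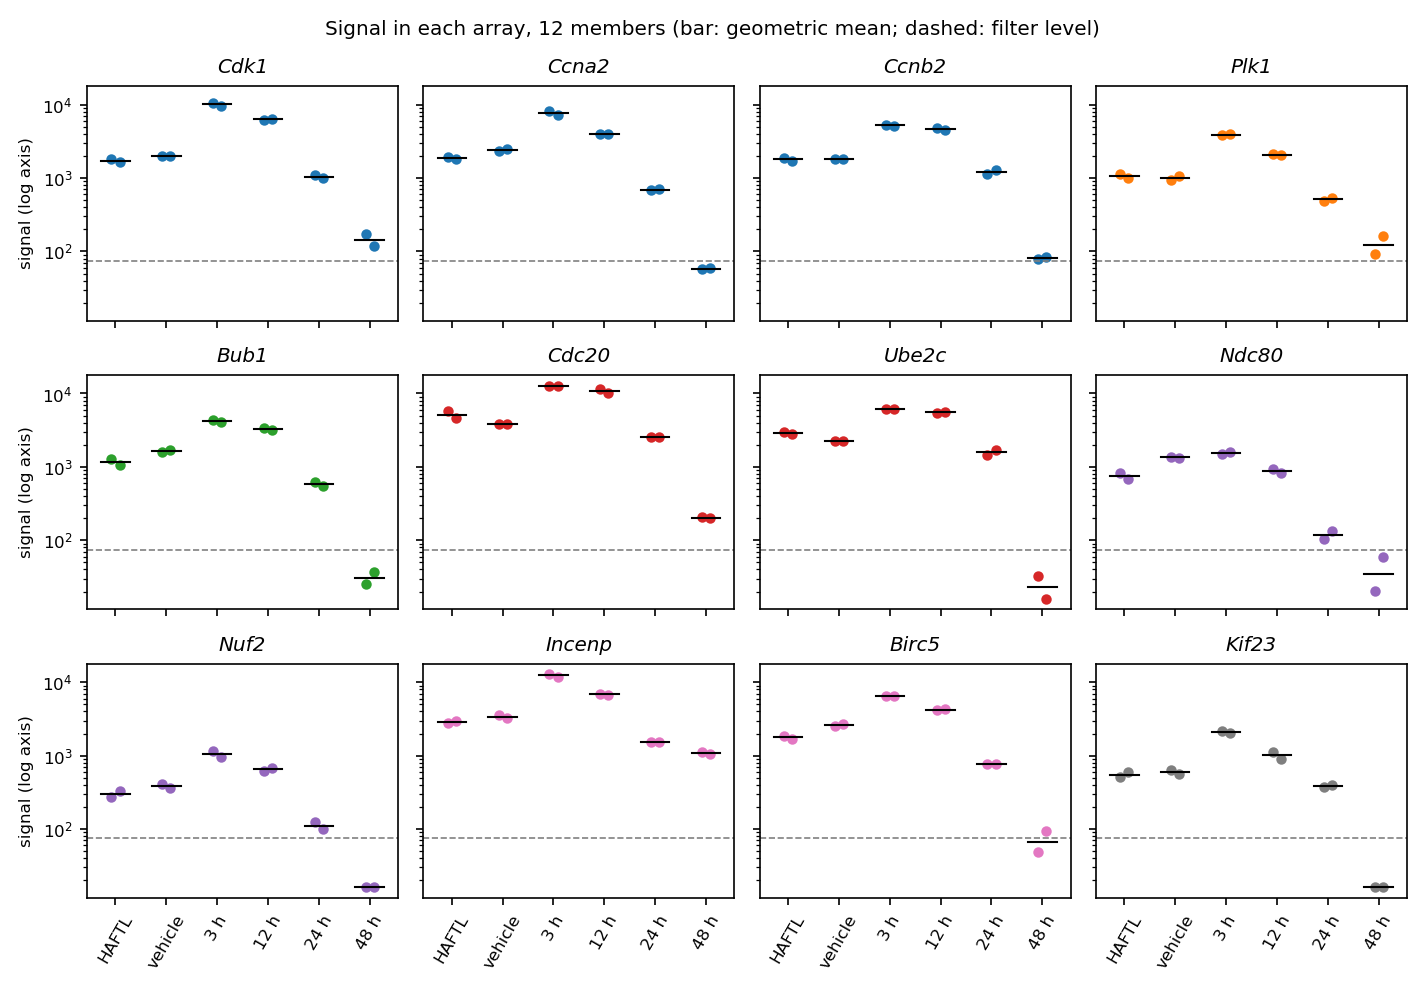
Normalised signal (log axis) of 12 members in each of the 12 arrays, by group, with HAFTL left of vehicle C10 and the 4 times of estradiol after it. Points are arrays, bars are geometric means of 2 arrays, and the dashed line is the filter level of 74.6. Points rise at 3 h above both vehicle arrays, Ndc80 by the smallest step, and both 48 h arrays lie below the dashed line for Ccna2, Bub1, Ube2c, Ndc80, Nuf2 and Kif23.

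At the kinetochore, 5 of 6 members rose at 3 h and 6 of 6 were lower at 24 h and 48 h. Ndc80, the microtubule-binding subunit that gives the Ndc80 complex its name, was the exception at 3 h. It had 1494 and 1597 after 3 h, against 1355 and 1329 in vehicle C10, a change of 0.20 ± 0.42 that was not called (limma adjusted p = 0.725). Of its partners in that complex, Nuf2 rose by 1.46 ± 0.15 and Spc25 by 1.80 ± 0.13. Nuf2 had 1157 and 965 after 3 h, against 407 and 362 in vehicle C10, and Spc25 had 2671 and 2629, against 795 and 725. No test of the difference between these genes was made. Ndc80 was also the member with the deepest level at 24 h, at 104 and 132, or 8.73% of vehicle. At 12 h, Ndc80 had 941 and 827, below both vehicle arrays, which was not called (limma adjusted p = 0.27). It was called without either 48 h array (adjusted p = 0.013 in either case), with a floor of 64 (0.0049) and with only the groups compared in the fit (0.0197). In 48 h arrays it read 20.4 and 59.1. Ndc80 has a single probe set here.

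Among the brightest probe sets, that of Cenpa, the centromere histone, showed the flattest plateau of any member. Its signal was 2875 and 2859 in vehicle C10, 6566 and 7002 after 3 h, 6459 and 6529 after 12 h, 1965 and 1789 after 24 h, and 237 and 198 after 48 h. The 12 h mean was 95.8% of the 3 h mean, and the arrays of both times lay above every vehicle array. A further probe set of Bub1b was flatter, with 3715 and 3608 after 3 h and 3730 and 3643 after 12 h. A dimmer probe set of Cenpa had 1082 and 976 after 3 h, 874 and 846 after 12 h, and 128 and 83.8 after 48 h, so its fall at 48 h was smaller, at -2.27 ± 0.19 against -3.73 ± 0.10. Cenpe, a kinetochore motor, and Cenpf, a kinetochore coat protein, had instead lost much of their rise by 12 h, with 56.8% and 52.5% of the 3 h mean.

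The spindle genes rose at 3 h in 5 of 5 cases and were higher at 12 h in 2 of 5, Kif2c and Tpx2. Kif11, the motor Eg5 that separates spindle poles, had 2848 and 2671 after 3 h, against 816 and 887 in vehicle C10. The other 2 probe sets of Kif11 were called in the same direction, at 1.98 ± 0.39 and 2.39 ± 0.49. Kif2c, a motor that dismantles microtubules, rose by 1.84 ± 0.23, and Tpx2, the activator of Aurora A, by 1.43 ± 0.15. Hmmr, a spindle-associated hyaluronan receptor, had the smallest called rise of any member, with 2069 and 1971 after 3 h, against 1106 and 1112 in vehicle C10 (0.86 ± 0.18, limma adjusted p = 0.0049). Nusap1, which bundles spindle microtubules, lay under the filter level in both 48 h arrays, against 1802 and 1870 in vehicle C10, at least 24.6-fold lower.

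The chromosomal passenger complex joins the kinase Aurora B to Incenp, Birc5 (survivin) and Cdca8 (borealin). All 4 genes rose at 3 h, and all 4 were lower at 24 h and at 48 h. Incenp, the scaffold, had 3526 and 3255 in vehicle C10, 12850 and 11960 after 3 h, 6968 and 6745 after 12 h, 1542 and 1537 after 24 h, and 1108 and 1056 after 48 h. It kept 31.9% of its vehicle level at 48 h, the highest share of any member, and between 24 h and 48 h it fell by 0.51 ± 0.08 (limma adjusted p = 0.0025). This last fall was not called with the mean of probe sets (-0.32, adjusted p = 0.254), with spike-in scaling (-0.30, 0.945) or with only the groups compared (0.0538). Birc5 had 48.0 and 93.6 after 48 h, against 2574 and 2742 in vehicle C10. Aurkb stood at 9.36% of vehicle at 48 h and Cdca8 at 6.85%. Another bright probe set of Incenp had 380 and 342 after 48 h, against 1348 and 1278 in vehicle C10, and was called lower. A dimmer one had 101 and 111 after 48 h, against 131 and 194, and was not called (-0.59 ± 0.23, adjusted p = 0.0557 over all probe sets tested).

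The 8 cytokinesis genes all rose at 3 h and were all lower at 24 h and 48 h. Anln, the scaffold anillin of the contractile ring, had 5233 and 5014 after 3 h, against 1124 and 1119 in vehicle C10, a rise of 2.19 ± 0.11. Prc1, the crosslinker of the central spindle, had 3326 and 3068 after 3 h, against 751 and 741, a rise of 2.10 ± 0.09. Both stayed above vehicle at 12 h, by 1.56 ± 0.11 and 1.13 ± 0.09. Of the centralspindlin pair, Kif23, the motor subunit, rose by 1.78 ± 0.13 and Racgap1, the GTPase-activating subunit, by 1.04 ± 0.17. Kif23 had 2164 and 2015 after 3 h, 1129 and 910 after 12 h, and 370 and 393 after 24 h, against 646 and 570 in vehicle C10, and both its 48 h arrays were at the floor. Ect2, the exchange factor that activates RhoA at the equator, rose by 1.70 ± 0.50 at 3 h, and its 48 h arrays of 24.9 and 90.3 enter that error. Kif20a, a motor of the central spindle, rose by 1.66 ± 0.24 and Kif4, a chromosome-bound motor of the midzone, by 1.77 ± 0.37. Cep55, which directs the final cut, rose by 1.02 ± 0.26 at 3 h and was at least 31.2-fold lower at 48 h.

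Of the genes that act on chromosomes, Mki67, which coats mitotic chromosomes and is the source of the Ki-67 proliferation marker, had 10080 and 10660 after 3 h, against 5052 and 4899 in vehicle C10. It had 7710 and 7986 after 12 h, 1304 and 1503 after 24 h, and 69.6 and 78.0 after 48 h, where only 1 array exceeded the filter level. Top2a, the topoisomerase that untangles sister chromatids, had 14620 and 14250 after 3 h, against 4722 and 4540. At 48 h Top2a had 166 and 138, so that it fell by 4.94 ± 0.11 on the log2 scale relative to vehicle C10 (limma adjusted p = 4.0e-08).

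Between 3 h and 12 h the members fell to differing extents. In 21 of 39 the signal was called lower, against 16.6% of all genes in this step, and in 18 no change was called. The calls did not divide the members by the size of the fall. Kif4 and Kif11 kept 51.4% and 51.6% of the 3 h mean and were not called, whereas Cdca8 kept 80.4% and was called. The 12 h arrays both lay below both 3 h arrays in 38 members (36.1% of all genes). By brightest probe set, the share of the 3 h mean kept at 12 h had a median of 62.3%. It ran from 44.9% in Ttk, 48.5% in Kif23 and 49.8% in Spc25 to 93.6% in Bub1b and 95.8% in Cenpa. Ube2c, Ccnb2, Cep55, Cdc20 and Nek2 came next, the last at 84.7%. In the main fit, none of these 7 genes was called lower at 12 h than at 3 h. Cdc20 was called lower in this step with the mean of probe sets (-0.41, limma adjusted p = 0.0407). Another probe set of Cdc20 had 5817 and 5427 after 3 h, and 4499 and 4396 after 12 h. The count depended on single arrays, and without 12 h replicate 1 it was 11. Scaled to the poly-A spike-in controls, no member was called in this step by limma, although 22 had an unadjusted p below 0.05.

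From 12 h to 24 h all 39 members fell, with a median log2 change of -2.28, whereas 23.1% of all genes were called lower. The 24 h signal was between 8.20% (Melk) and 37.7% (Kif23) of that at 12 h. From 24 h to 48 h all 39 fell again, with a median of -2.85, or -2.33 with dim genes at their bounds, whereas 17.9% of all genes were called lower. The 48 h signal was between 1.44% (Ube2c) and 70.3% (Incenp) of that at 24 h. The steps are drawn for every member in the plot of successive times.

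**Figure D4:**
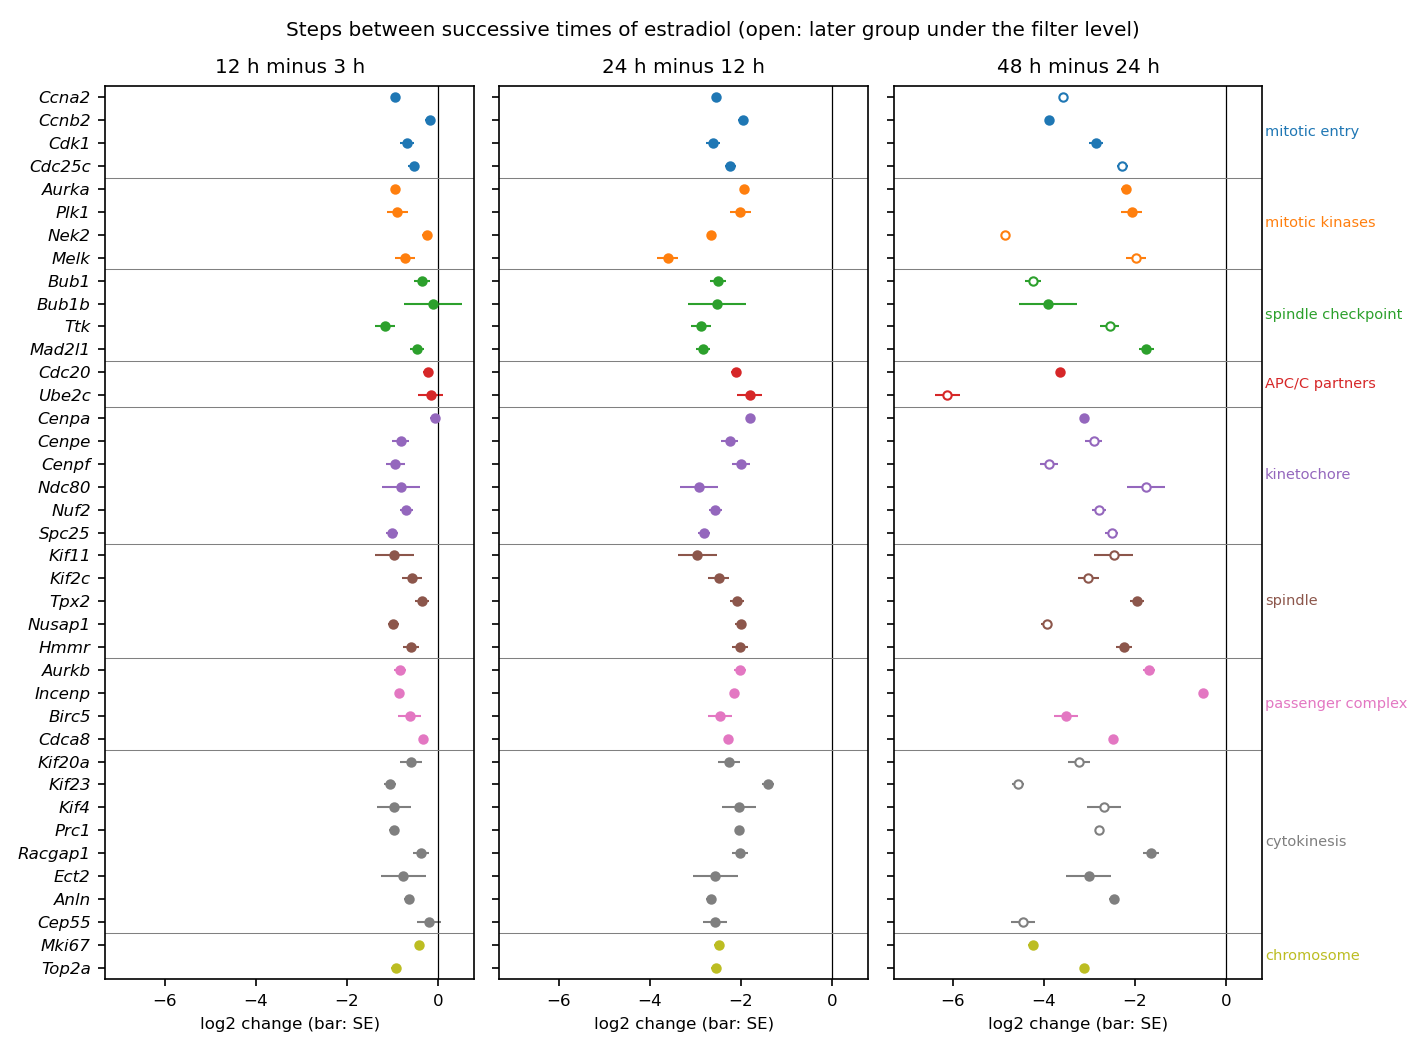
Log2 change of each member between successive times of estradiol, with standard errors from limma (2 arrays each). Open circles mark members with both 48 h arrays under the filter level. Changes are near or below 0 from 3 h to 12 h and are all below -1.4 from 12 h to 24 h, while from 24 h to 48 h they spread from -6.12 (Ube2c) to -0.51 (Incenp).

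The last step differed in size from the one before it in 16 members. The fall from 24 h to 48 h was larger than that from 12 h to 24 h in 13 members (13.7% of all genes) and smaller in 3 (9.19%), by limma's test of the difference between steps. Only in Ccnb2, Cdc20 and Cenpa of the 13 were both 48 h arrays above the filter level. The later step minus the earlier one was -1.93 ± 0.16 on the log2 scale in Ccnb2 (adjusted p = 3.6e-04), -1.53 ± 0.19 in Cdc20 and -1.32 ± 0.17 in Cenpa. These genes had kept 64.9%, 65.7% and 65.4% of their vehicle level at 24 h. The same difference was 1.65 ± 0.13 in Incenp and 1.08 ± 0.28 in Mad2l1, which stayed above the filter level. The fall was also smaller in Melk, whose 24 h arrays of 77.3 and 80.0 lay just above the filter level. The split depended on the floor set for dim signals and on the scaling. With a floor of 64 it was 12 larger and 10 smaller, with the mean of probe sets 7 and 4, and with spike-in scaling 2 and 0. The smaller count was 1 without 12 h replicate 2 or without 24 h replicate 1.

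Few members were called different between HAFTL and vehicle C10. In HAFTL, 1 of 39 was called higher and 3 lower than in vehicle C10, and 7.11% and 8.12% of all genes were so called. Low counts in this comparison were thus not particular to the members. Cdc20 was higher, with 5698 and 4599 in HAFTL, against 3882 and 3804 in vehicle C10 (0.41 ± 0.11, limma adjusted p = 0.0402). This call was not stable: the adjusted p was 0.152 without HAFTL replicate 1, 0.124 and 0.147 without either vehicle array, 0.0983 without quantile normalisation, 0.35 with median centring and 0.177 with only the groups compared. Ccna2 was lower, with 1937 and 1823 in HAFTL, against 2345 and 2478 (-0.36 ± 0.08). Top2a had 3335 and 3422, against 4722 and 4540, and Cdca8 had 2205 and 2305, against 2688 and 2676. The pairs of arrays do not overlap in these 4 genes, but they overlapped in only 11 of the 39 members. Non-overlap therefore did not set these 4 apart, and its share over all genes is not given here. The members' median log2 change was -0.20, against 0.00 for all genes. The count of 3 lower members also moved: it was 0 without either HAFTL array or either vehicle array, and 7 without either 48 h array. Ndc80 had 823 and 680 in HAFTL, against 1355 and 1329 in vehicle C10, and was not called (limma adjusted p = 0.225), although it was without either 48 h array (0.0144) and with a floor of 64 (0.0038).

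Of the 86 probe sets of the members, 79 passed the filter and 7 did not. Tested one by one over all probe sets, 69 were called higher at 3 h (21.4% of all probe sets), 51 higher at 12 h (22%), 65 lower at 24 h (28.7%) and 73 lower at 48 h (32.9%). None was called in the opposite direction, and no member had probe sets called both ways in any comparison. The 10 not called at 3 h included the single probe set of Ndc80 and further probe sets of Nek2, Tpx2 and Spc25.

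The calls depended in part on the scaling between arrays. Scaled to the poly-A spike-in controls instead of by quantiles, the median of all genes shifted to 0.58, 0.39, 0.23 and 0.38 at the 4 times. On that scale the members' medians were 2.27, 1.41, -1.06 and -3.94, with 38 and 28 members called higher at 3 h and 12 h, and 17 and 39 lower at 24 h and 48 h. The count at 24 h was therefore 17 on this scale, against 37 after quantile normalisation. The spike-in signals themselves differed between duplicates, with mean log2 values of 7.54 and 6.52 in the 48 h arrays.

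Other genes of the same machinery were counted from lists of known function. Of all 11696 genes tested, 2450 were called higher and 3196 lower at 3 h, and 4469 lower at 48 h. Of 31 further kinetochore and centromere genes, 27 rose at 3 h and 25 were lower at 48 h, and of 26 further spindle and cytokinesis genes 19 rose and 2 fell at 3 h and 25 were lower at 48 h. Their median log2 changes were 1.23 and 1.58 after 3 h, and -2.91 and -2.85 at 48 h, or -1.80 and -2.48 with dim genes at their bounds. Among them Shcbp1, a midbody protein, had 3832 and 3929 after 3 h, 2479 and 2462 after 12 h, 244 and 258 after 24 h, and 26.0 and 16 after 48 h, against 1005 and 985 in vehicle C10. Pbk, a mitotic kinase, and Cenpp, an inner kinetochore protein, were at least 26.1-fold and 8.27-fold lower at 48 h. Kif20b, Depdc1a, Ska1, Sgo1 and Cenph were likewise called higher at 3 h and lower at 48 h.

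Of the condensin, cohesin and separase genes, 16 of 19 rose at 3 h (median 0.86) and 17 were lower at 48 h (median -1.55). Ncapg, Smc2 and Ncapd2 of condensin and Cdca5, the cohesin protector sororin, rose by 1.31 to 1.48 at 3 h and had the largest falls of that list at 48 h. The list of APC/C genes, which held core subunits together with Fbxo5, Fzr1 and Ube2s, moved in both directions. Of these 16, 8 rose and 3 fell at 3 h, and 2 were higher and 12 lower at 48 h. Their medians were 0.27 and -0.78. The same counts over all 11696 genes were 2450 and 3196 at 3 h, and 2831 and 4469 at 48 h. Cdc16, a core subunit, had 1936 and 1912 after 3 h and 1605 and 1469 after 48 h, against 3911 and 3690 in vehicle C10, and so was lower at the time the members were highest. Fbxo5, the APC/C inhibitor Emi1, had 3270 and 3625 after 3 h, against 1005 and 891 in vehicle C10. At 48 h, Cdc23 fell by 1.46 ± 0.20 and Anapc5 by 1.10 ± 0.10 in log2 units.

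Of 14 regulators of mitotic entry and exit, 13 rose at 3 h and 12 were lower at 48 h (medians 1.16 and -2.37). Ccnf, cyclin F, rose by 2.13 ± 0.15, Cdca2, the chromosomal phosphatase anchor Repo-Man, by 1.43 ± 0.10, Pkmyt1, a kinase that inhibits Cdk1, by 1.38 ± 0.16, and Cks1b, a small Cdk-binding protein, by 0.58 ± 0.10. Of 16 genes of the MuvB, B-Myb and FoxM1 regulators, 11 rose and 3 fell at 3 h, and 12 were lower at 48 h (medians 0.60 and -0.54). The same counts over all 11696 genes were 2450, 3196 and 4469. Mybl2, which encodes B-Myb, had 1125 and 1170 after 3 h, against 326 and 373 in vehicle C10, and was at least 4.67-fold lower at 48 h. Lin54, the MuvB subunit that binds the CHR, rose by 0.52 ± 0.09 at 3 h and fell by 1.16 ± 0.09 at 48 h. Of the dimerisation partners of E2F proteins, Tfdp2 fell by 2.61 ± 0.16 and Tfdp1 fell by 1.36 ± 0.09 at 48 h. Foxm1, chosen after its values were seen, had 737 and 676 after 3 h and 171 and 201 after 48 h, against 215 and 288 in vehicle C10.

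Of the G1/S and DNA replication genes, all 25 rose at 3 h (median 1.61) and 21 were higher at 12 h (median 1.41). At 24 h 22 were lower (median -2.01), and at 48 h 22 were lower (median -2.36). The shares of all genes so called were 20.9%, 22.3%, 33.3% and 38.2%. Mcm5, a subunit of the replicative helicase, had 3695 and 3859 in vehicle C10, 13940 and 15050 after 3 h, 14620 and 14570 after 12 h, 980 and 903 after 24 h, and 199 and 183 after 48 h. Rrm2, a subunit of ribonucleotide reductase, had 506 and 674 after 24 h, against 4110 and 4183 in vehicle C10. Prim1, a primase subunit, and Cdc6, a licensing factor, rose by 1.52 ± 0.33 and 2.60 ± 0.59 at 3 h. The step from 24 h to 48 h was smaller than that from 12 h to 24 h in 23 of 25 G1/S genes (9.19% of all genes). The members' median at 24 h was -1.38 and the G1/S median -2.01, and at 48 h they were -4.51 (-3.56 at bounds) and -2.36. No test was made between the lists. Tyms and E2f1, named after their values were seen, were higher at 48 h by 1.60 ± 0.19 and 0.55 ± 0.17 than in vehicle C10.

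**Figure D5:**
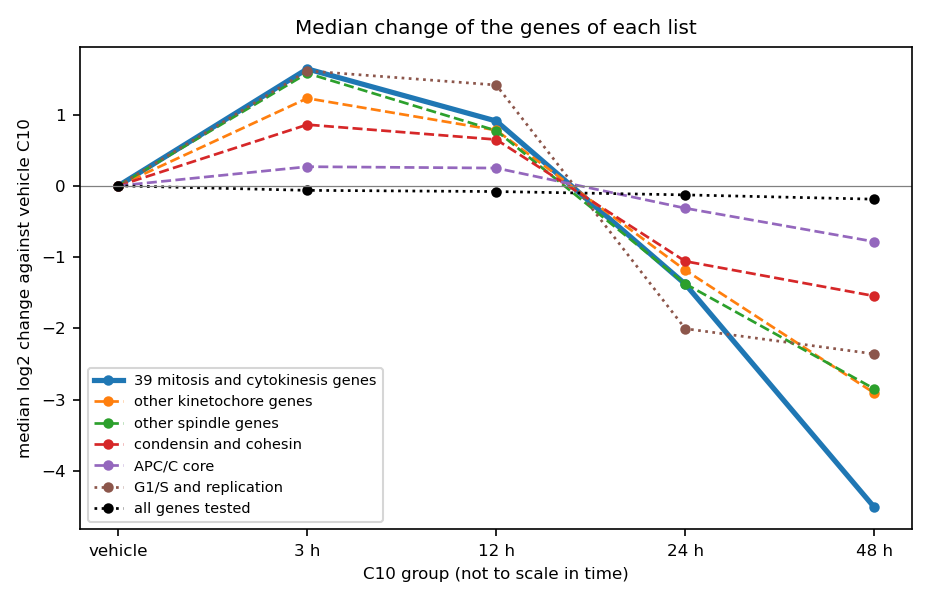
Median log2 change against vehicle C10 (which is 0 by construction) of the 39 members, of 5 other lists and of all 11696 genes tested, for C10 after 3, 12, 24 and 48 h of estradiol, with times not drawn to scale. The line of the members peaks at 1.64 at 3 h and ends at -4.51 at 48 h, a median of fitted values, below the other lists. The G1/S line lies lowest at 24 h, at -2.01. The list drawn as APC/C core also holds Fbxo5, Fzr1 and Ube2s.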

How the data were processed

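RNA of 12 samples was measured on one-colour mouse arrays, with Trizol extraction and biotin labelling per the labels' protocols. The deposited values are linear intensities per probe set, which the authors had scaled between arrays, as the values show: the 2% trimmed mean did not differ from array to array. How probes were summarised, and any detection calls, are not given in the sources. Array medians ranged from 68.5 to 85.0, so the log2 values were quantile normalised over 45101 probe sets. A total of 64 control probe sets were dropped, and signals under 16 were set to 16. Probe sets were named from the platform annotation, with symbols updated through RefSeq (34741 of 34945 with 1 symbol). Those with several symbols (932) or none (9211) were not used. A gene was its probe set with the highest mean, tested where at least 2 arrays had a log2 value over 6.22, the overall median.

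The fit was made in R (4.3.3) with limma (3.58.1) and had 1 mean per group over 12 arrays, 6 residual degrees of freedom, a prior of 1.53, two-sided Benjamini-Hochberg adjustment over all genes tested and a threshold of 0.05. Errors are standard errors of this fit. On simulated data for 3 h against vehicle C10 with 11696 genes, 87% of changes of 1 and 98% of changes of 2 on the log2 scale were recovered, with 8 false among 193 calls. Python (3.11.15) with pandas (2.3.3) was used for counts and motif searches. The members and lists were chosen with earlier results of these data known, so they are not independent evidence. Named genes were all members and, of each other list, up to 4 genes with the largest change at 48 h against vehicle C10. Alternatives covered normalisation, filter, floor, probe sets, prior, threshold, samples in the fit, control, the replicate block and leaving out each array.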

Additional observations from a re-analysis of the deposited data

How the results depend on the processing

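Counts of members called in the main direction of each comparison stayed within 1.5 times the reported ones in every alternative but those named here. Between HAFTL and vehicle C10, the 3 lower members became 6 with median centring, 0 with poly-A spike-in scaling, 5 with the filter at the 70th percentile, 1 with the mean of probe sets, 4 (of 79) with every probe set on its own, 7 with an intensity trend, 0 with a minimum log2 change of 1, 8 with a floor of 64, 5 with a pseudocount of 16 and 0 with only the groups compared. Spike-in scaling gave 17 members lower at 24 h against vehicle C10, 0 lower between 3 h and 12 h (22 at an unadjusted p below 0.05), and 2 with a larger step after 24 h. That last count was 7 with the mean of probe sets and 17 with every probe set on its own. The 3 members with a smaller later step became 10 with a floor of 64, 9 (of 79) with every probe set, 0 with spike-in scaling and 1 with only the groups compared. The 1 member higher in HAFTL became 0 without quantile normalisation, with median centring, spike-in scaling, no filter, the mean of probe sets, a minimum change of 1 and only the groups compared, and 2 with a floor of 64. At 12 h, 1 member (Ndc80) became lower than vehicle C10 with a floor of 64, with only the groups compared and without either 48 h array. A minimum change of 1 left 16 members higher at 12 h and 3 lower between 3 h and 12 h. It was not run for the F test. The cause of these differences was not tested.

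Leaving out each array in turn gave 34 to 38 members higher at 3 h, 25 to 34 higher at 12 h, 35 to 39 lower at 24 h and 39 lower at 48 h. It gave 11 to 30 lower between 3 h and 12 h, 38 to 39 lower in each later step, 10 to 18 with a larger and 1 to 4 with a smaller later step, and 0 to 7 lower and 0 to 1 higher in HAFTL. No called change turned its sign in the alternatives run, but some uncalled ones did. With the replicate block the counts were 37, 30, 37 and 39 for the 4 times against vehicle C10, and 20 between 3 h and 12 h. Same-numbered arrays did not deviate together (correlations from -0.03 to 0.04), so the numbers are not taken as pairs. Signals under the filter level limit all changes at 48 h. Arrays cannot show how far below it 20 of the members fell.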
